A study of Mus musculus with 8 samples.

Results

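Transcripts of 9 genes that mark the trabecular myocardium were measured in the embryonic mouse ventricle with and without cardiomyocyte *Pkn2*. The genes were *Nppa*, *Nppb*, *Bmp10*, *Irx3*, *Gja5*, *Cited1*, *Slit2*, *Cpne5* and *Sema3a*. They were taken by name from the deposited count and TPM tables. The rule itself used no measured value, but the genes were chosen with earlier results of these data known. They make up 9 of the 55291 genes in the count table, and all 9 were among the 26820 genes with enough counts to be tested. The members fall into secreted factors (*Nppa*, *Nppb*, *Bmp10*, *Slit2* and *Sema3a*), regulators of transcription (*Irx3* and *Cited1*), a gap junction channel (*Gja5*) and a calcium-dependent membrane-binding protein (*Cpne5*).

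RNA was sequenced from ventricular tissue at embryonic day 10.5 (E10.5), with 1 library for each of 4 cKO and 4 control replicates. The cKO embryos carried floxed *Pkn2* on both alleles (*Pkn2* fl/fl) and the XMLC2-Cre transgene, whose promoter directs the deletion to cardiomyocytes. The controls were Cre-negative littermates with the same *Pkn2* fl/fl alleles, and the strain was given as C57BL/6 or C57BL/6N. No agent was given to either group. Control embryos lacked the transgene itself as well as its activity. By the methods, a replicate is an individual animal or embryo except where otherwise specified, and pooling is not described for these libraries.

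Trabeculae are muscular ridges that grow from the inner face of the early ventricular wall into the lumen, covered by endocardium and separated from it by cardiac jelly. At mid-gestation they conduct the beat and do much of the pumping, while the outer compact layer proliferates and later thickens. Neuregulin and Notch signals from the endocardium, and BMP10 made by the trabecular cells, are needed for this layer to grow. Each layer is recognised by genes that it expresses more strongly than the other.

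Libraries held 47559845 to 56660938 counts. Each cKO library had less *Pkn2* than each control library, with 77.6 to 84.3 CPM (counts relative to the TMM-scaled library size) against 133 to 153 CPM, and the mean was 56.3% of the control mean (exact permutation test over the 70 groupings, two-sided p = 0.0286, which is the lowest possible). The log2 fold change of *Pkn2* was −0.83 (adjusted p = 7.67e-06, edgeR's quasi-likelihood test). Counts per gene do not tell transcripts that lack the floxed exon from intact ones. The tissue label was checked against defining genes. The 12 cardiomyocyte markers had a geometric mean of 1920 to 1994 CPM in cKO and 1929 to 2098 CPM in control libraries, *Myl2*, which encodes the ventricular myosin light chain, was at a mean of 11837 TPM, the deposited length-scaled abundance, and *Sln*, an atrial muscle gene, was at 0 in the 4 controls and at most 0.0714 CPM in cKO. Other genes of the same atrial and inflow list were present, among them *Angpt1* at 52.8, *Tbx5* at 36.7, *Stard10* at 20.8 and *Nr2f2* at 7.39 TPM.

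To show the sequence next to the values, the 250 bases before the RefSeq start of 4 members are printed from the GRCm38.p6 assembly, 5′ to 3′ on the strand of the gene. *Nppa* and *Nppb* are shown because they are neighbours on chromosome 4, and *Cited1* and *Slit2* because they had the lowest and the highest fold change of the 9. Capitals mark exact matches, on either strand, to the motifs named below. The windows are chr4:148000472-148000721 for *Nppa* (plus strand), chr4:147985650-147985899 for *Nppb* (plus strand), chrX:102252182-102252431 for *Cited1* (minus strand, the first of its 3 RefSeq starts) and chr5:47982905-47983154 for *Slit2* (plus strand).
Nppa: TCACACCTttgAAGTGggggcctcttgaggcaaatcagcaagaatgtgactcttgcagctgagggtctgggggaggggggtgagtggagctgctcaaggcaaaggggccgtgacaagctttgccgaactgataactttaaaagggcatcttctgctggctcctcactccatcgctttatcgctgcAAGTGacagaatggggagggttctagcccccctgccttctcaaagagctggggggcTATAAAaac
Nppb: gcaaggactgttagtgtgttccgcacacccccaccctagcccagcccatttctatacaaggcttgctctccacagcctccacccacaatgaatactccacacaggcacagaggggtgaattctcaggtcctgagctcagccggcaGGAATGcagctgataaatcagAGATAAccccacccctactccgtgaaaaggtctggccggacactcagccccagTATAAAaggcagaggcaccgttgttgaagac
Cited1: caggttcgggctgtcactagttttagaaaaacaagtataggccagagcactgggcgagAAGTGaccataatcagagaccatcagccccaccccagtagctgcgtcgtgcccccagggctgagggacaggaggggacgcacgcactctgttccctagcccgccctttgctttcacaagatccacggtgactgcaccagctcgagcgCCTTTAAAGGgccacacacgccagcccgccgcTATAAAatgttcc
Slit2: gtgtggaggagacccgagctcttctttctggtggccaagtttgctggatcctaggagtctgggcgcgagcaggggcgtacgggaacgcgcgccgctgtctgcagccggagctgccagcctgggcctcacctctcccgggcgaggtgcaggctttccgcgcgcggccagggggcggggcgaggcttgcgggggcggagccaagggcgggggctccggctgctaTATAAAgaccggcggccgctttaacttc

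All 9 members had a window in the RefSeq table, 11 windows in all, against 32851 windows over all genes. The NKX2-5 site AAGTG was in a window of 5 members, *Nppa*, *Irx3*, *Gja5*, *Cited1* and *Cpne5*, and in 40.7% of all windows. The T-box site AGGTGTGA, which holds the shorter GGTGTGA, was found in *Nppa* alone of the 9, on the opposite strand at 250 to 243 bases before the start, and in 1.12% of all windows (the shorter form in 3.33%). The GATA site AGATAA was in *Nppb* and *Bmp10* (9.99% of all windows), and the TEAD site CATTCC in *Nppb* (12.6%), where it is printed as its reverse complement. Other forms of the GATA site, such as TGATAA, were not searched, and the printed *Nppa* and *Nppb* windows hold those letters unmarked. A CArG box, the site of serum response factor, was in the *Cited1* window 45 to 36 bases before the start (1.47%). The MEF2 site was in none of the 9 (2.92%), and the letters TATAAA, which were added to the search later, were in *Nppa*, *Nppb*, *Cited1* and *Slit2* (12.4%). These are matches of letters in a short window and say nothing of binding.

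On the TPM scale, which divides by transcript length and so allows genes to be compared, the 9 members spanned a wide range of levels. *Nppa* was the most abundant, at a mean of 2947 TPM over the 8 libraries and rank 30 of the 33443 genes with a TPM above 0. It was followed by *Cited1* (536 TPM), *Nppb* (274 TPM), *Gja5* (104 TPM), *Bmp10* (80.9 TPM), *Slit2* (35.5 TPM), *Sema3a* (21.0 TPM), *Irx3* (17.4 TPM) and *Cpne5* (8.19 TPM). The libraries of neighbours in this order did not overlap, apart from *Gja5* with *Bmp10* and *Sema3a* with *Irx3*. The smallest gap was between *Slit2*, at 27.4 TPM or more, and *Sema3a*, at 26.0 TPM or less. The 9 genes together took 0.134% to 0.166% of all counts in a library. *Nppa* accounted for 25.4% to 27.0% of the members' counts in control libraries and 26.6% to 32.5% in cKO libraries.

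**Figure D1:**
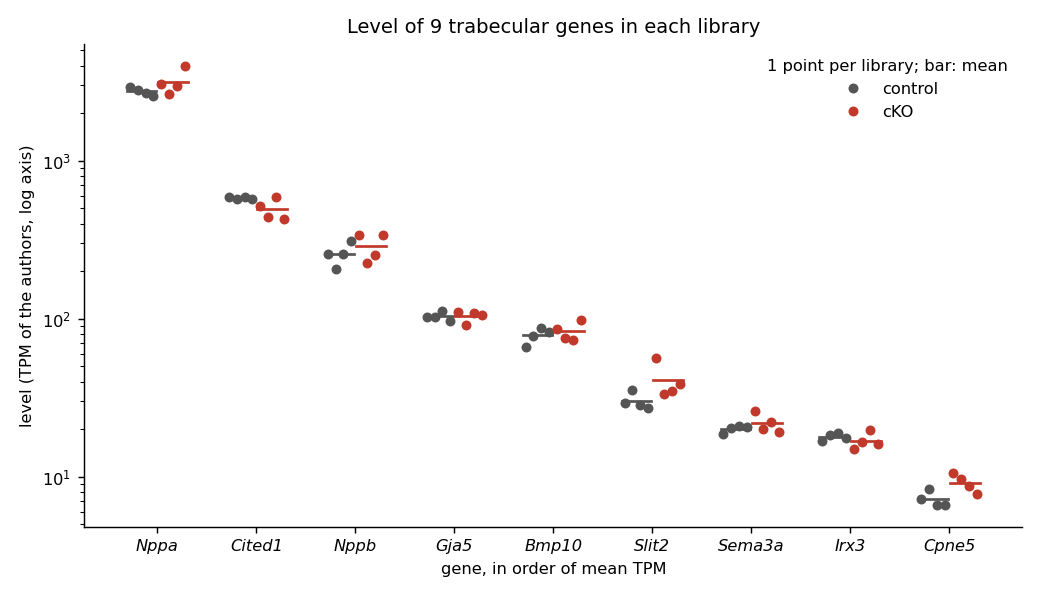
Level of the 9 trabecular genes in each library, in TPM as deposited (vertical axis, logarithmic), with genes in order of their mean (horizontal axis). Each point is 1 library, grey for control and red for cKO, and each bar is the mean of 4 libraries. Levels ran from 8.19 TPM for *Cpne5* to 2947 TPM for *Nppa*, and the 2 groups overlapped for every gene.

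Between cKO and control, differences in the trabecular genes were small. Differences are given as log2 fold changes of cKO over control. None of the 9 passed the FDR threshold (adjusted p at most 0.05, Benjamini-Hochberg over all genes, edgeR). It was passed by 0.858% of all genes (0.515% higher and 0.343% lower in cKO). With limma-voom 0 members passed (0.626% of all genes). With DESeq2, the tool of the authors' own test, 2 members passed, *Slit2* and *Cpne5* (3.23% of all genes). At an unadjusted p under 0.05 were 4 of 9, with *Slit2*, *Cpne5* and *Nppa* higher and *Cited1* lower in cKO, against 12.8% of all genes (6.61% higher and 6.2% lower). In RNA from whole ventricles, fewer cells of a type and less RNA per cell cannot be told apart. The 4 cKO and 4 control values overlapped in all 9, while they did not overlap in 6.91% of all genes. The median log2 fold change of the 9 was 0.09, with 6 above 0 and 3 below, beside −0.00085 over all genes. No member's 95% interval reached a 1.5-fold difference in either direction, the lowest bound being 0.725-fold for *Cited1* and the highest 1.45-fold for *Slit2*. The lowest count of any member in any library was 962 (*Irx3*), where counting error alone is 3.22%.

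**Figure D2:**
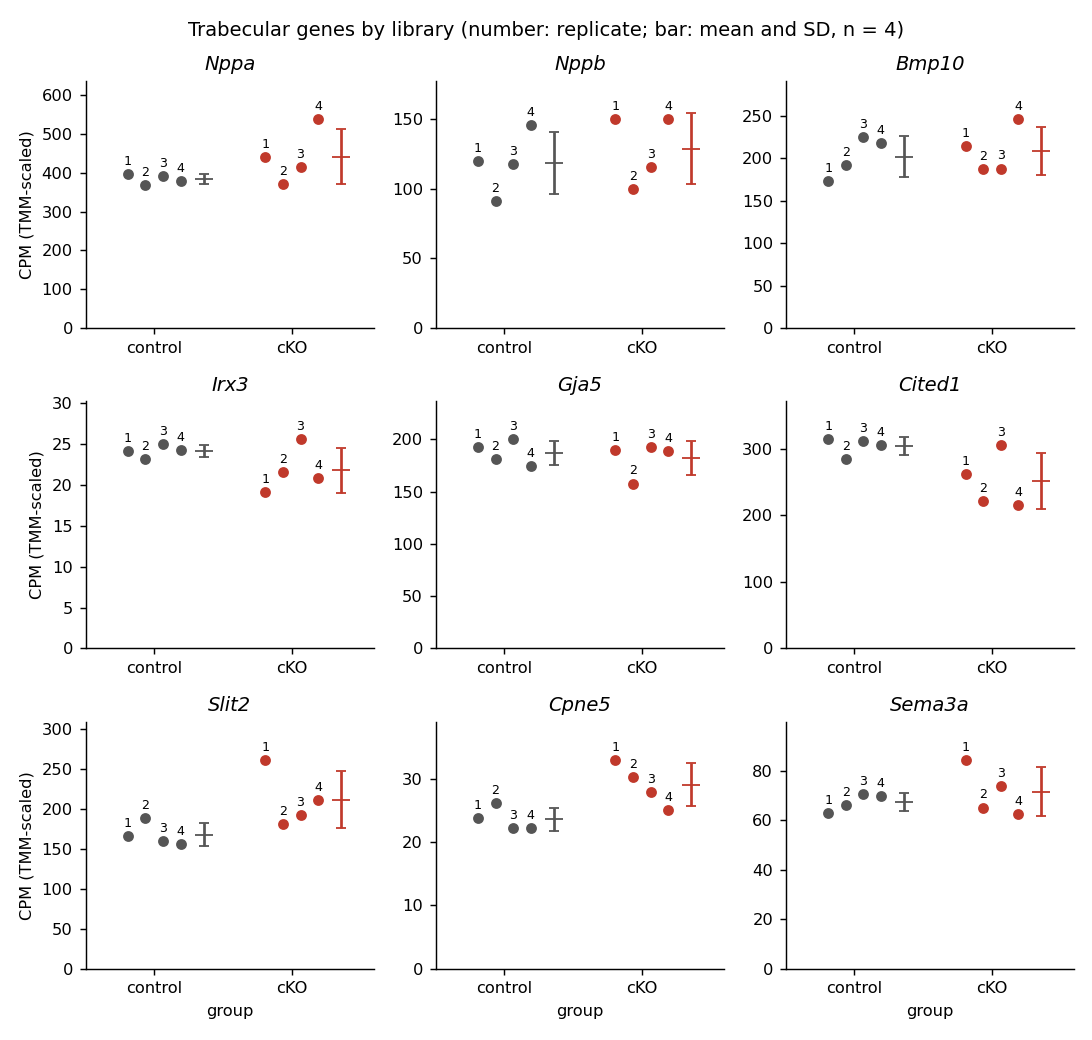
CPM scaled by TMM (vertical axis, from 0) of each trabecular gene in each of the 4 control (grey) and 4 cKO (red) libraries, with the replicate number above each point and the mean and SD beside them. The groups overlapped in all 9 genes, and the cKO values were more spread than the control values in each.

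The natriuretic peptides are released by working chamber muscle, and in the embryonic ventricle they mark the trabeculae. *Nppa* (ENSMUSG00000041616, chromosome 4, 148000722 to 148002079, plus strand, GRCm38), which encodes atrial natriuretic peptide, was at 440.0, 371, 415 and 539.9 CPM in cKO replicates 1 to 4 and at 398, 368, 393 and 379.6 CPM in control replicates 1 to 4. Replicate 4 was the highest of the cKO libraries, 3 of the 4 lay above every control, and replicate 2 lay among the controls. The means were 442 ± 71.5 and 385 ± 13.6 CPM (SD, n = 4 each). The fitted log2 difference was 0.20 ± 0.0874 (SE, adjusted p = 0.351). The 95% interval was 1.01 to 1.30-fold, and without cKO replicate 4 the log2 fold change was 0.10 (adjusted p = 0.642). The opposite-strand gene *Gm13054* shares 989 bases with *Nppa* and held 520 counts in all, against 170830 for *Nppa*.

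*Nppb* (ENSMUSG00000029019, chromosome 4, 147985788 to 147987205, plus strand), which encodes B-type natriuretic peptide, ends 13516 bases before *Nppa* starts, with no annotated gene between them. It measured 149.8, 99.8, 116 and 150.3 CPM in cKO replicates 1 to 4 and 119.7, 90.9, 118 and 146 CPM in the controls in the same order. Both groups were widely spread, with replicate 2 the lowest in each and ranges that overlapped over most of their width. The log2 difference was 0.12 ± 0.132 (SE, adjusted p = 0.794), with a 95% interval of 0.896 to 1.32-fold.

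Genes that process or bind these peptides were taken from a list of 6. *Corin*, which encodes the cardiomyocyte protease that cleaves the *Nppa* precursor, fell: it was at 17.3, 21.1, 24.1 and 25.3 CPM in cKO and 31.8, 37.0, 38.5 and 31.2 CPM in control replicates 1 to 4, so that the groups did not overlap. The log2 difference was −0.66 ± 0.105 (SE, adjusted p = 0.00808, edgeR). The other 5 did not pass, among them the receptor genes *Npr1*, *Npr2* and *Npr3* (log2 fold changes of 0.15, 0.12 and 0.12). *Npr3* was higher without overlap, at 267 to 291 CPM in cKO and 235 to 263 CPM in control libraries. At an unadjusted p under 0.05 (edgeR) were 2 of the 6, *Npr3* higher and *Corin* lower, against 12.8% of all genes. *Nppc*, the third natriuretic peptide gene, was close to 0, at a mean of 0.0235 TPM.

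*Bmp10* (ENSMUSG00000030046, chromosome 6, 87428994 to 87437677, plus strand) encodes a BMP ligand made by trabecular cardiomyocytes. It measured 214, 187, 188 and 247 CPM in cKO replicates 1 to 4 and 173, 192, 225 and 217 CPM in the controls in the same order. The groups overlapped almost completely, with cKO replicate 4 the highest and control replicate 1 the lowest. The means were 209 ± 28.2 and 202 ± 23.8 CPM (SD, n = 4 each). This gave a log2 difference of 0.05 ± 0.0928 (SE, adjusted p = 0.901), and the 95% interval was 0.903 to 1.19-fold. The sign turned to −0.03 without cKO replicate 4 and to −0.01 without control replicate 1. Of 13 genes for BMP10 receptors, BMP targets and the related ligand *Gdf2*, 0 passed the FDR threshold, while 3 had an unadjusted p under 0.05. The target genes *Id1*, *Id2*, *Id3*, *Smad6* and *Smad7* had log2 fold changes of −0.12, 0.05, 0.07, −0.09 and 0.06. *Eng*, a co-receptor found on endothelium, averaged 261 ± 47.0 CPM in cKO against 202 ± 18.0 CPM in control libraries (SD, n = 4 each, adjusted p = 0.0981, edgeR).

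*Slit2* (ENSMUSG00000031558, chromosome 5, 47983138 to 48307733, plus strand), which encodes a secreted guidance ligand of ROBO receptors, had the highest fold change of the 9. It measured 261, 181, 192 and 211 CPM in cKO replicates 1 to 4 and 166, 188, 159.8 and 156 CPM in the controls in the same order. Replicate 1 stood highest among the cKO libraries, 3 of the 4 lay above every control, and replicate 2 lay below the highest control. The means were 211 ± 35.7 and 168 ± 14.2 CPM (SD, n = 4 each). The log2 difference was 0.33 ± 0.0949 (SE, adjusted p = 0.115), with a 95% interval of 1.10 to 1.45-fold. The unadjusted p was 0.00286, and DESeq2 called the gene (adjusted p = 0.0227), as did edgeR with no filter on low counts (adjusted p = 0.00723), where 2.62% of all genes were called. Over the other alternatives the adjusted p ran from 0.0556 without cKO replicate 2 to 0.426 on the log2(TPM + 1) scale.

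Of the 5 other SLIT and ROBO genes, 0 passed the FDR threshold and 1 had an unadjusted p under 0.05. The receptor *Robo1*, the most abundant of them at 17.0 TPM, had a log2 fold change of 0.02 (adjusted p = 0.976). The endothelial receptor *Robo4* was at 3.84 to 8.34 CPM in cKO and 2.52 to 3.24 CPM in control libraries (log2 fold change 0.90, adjusted p = 0.0566). The related ligand *Slit3*, at 14.6 TPM, had a log2 fold change of −0.12, and *Slit1* was nearly absent, at 0.101 TPM.

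*Sema3a* (ENSMUSG00000028883, chromosome 5, 13396784 to 13602565, plus strand), which encodes a secreted semaphorin that binds neuropilin and plexin receptors, measured 84.5, 65.1, 74.0 and 62.4 CPM in cKO replicates 1 to 4 and 63.1, 66.0, 70.6 and 69.8 CPM in the controls in the same order. The cKO libraries lay both above and below the controls, with replicate 1 the highest and replicate 4 the lowest of the 8. Its log2 difference of 0.09 ± 0.0818 (SE, adjusted p = 0.758) had a 95% interval of 0.941 to 1.20-fold. Of 12 receptors and other class 3 semaphorins, 9 had a log2 fold change above 0, 3 below, and only *Sema3g* passed the FDR threshold. At an unadjusted p under 0.05 (edgeR) were 6 of the 12, all higher in cKO, against 6.61% of all genes higher at that p. They were *Sema3g*, *Sema3e* and the receptor genes *Nrp2*, *Plxna2*, *Plxna3* and *Plxna4* (log2 fold changes of 0.23, 0.32, 0.16 and 0.22 for the receptors). *Sema3g*, known from endothelium, was at 22.2, 10.7, 6.34 and 18.2 CPM in cKO and 6.39, 6.49, 4.36 and 5.89 CPM in control replicates 1 to 4, so that 1 cKO library lay within the control range (log2 fold change 1.31, adjusted p = 0.0326). *Nrp1*, the main receptor gene by level (93.1 TPM), had a log2 fold change of −0.02.

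Among the regulators of transcription, *Cited1* (ENSMUSG00000051159, chromosome X, 102247381 to 102252181, minus strand), which encodes a co-activator that binds CBP and p300, had the lowest fold change of the 9. It measured 263, 222, 306 and 216 CPM in cKO replicates 1 to 4 and 315, 285, 312 and 305 CPM in the controls in the same order. The controls were close together, 3 of the 4 cKO libraries lay below all of them, and replicate 3 lay within their range. The means were 252 ± 41.9 and 304 ± 13.6 CPM (SD, n = 4 each). The log2 difference was −0.27 ± 0.0898 (SE, adjusted p = 0.178), with a 95% interval of 0.725 to 0.944-fold. Without cKO replicate 3 the gene passed the FDR threshold at a log2 fold change of −0.38 (adjusted p = 0.0101), in a fit that called 744 of all genes in place of 230. *Cited1* lies on the X chromosome. *Xist*, the transcript of the inactive X, was at 0.0801 to 2.24 CPM, and the Y-linked *Ddx3y* at 47.0 to 60.9 CPM, in the 8 libraries. With log2 *Xist* CPM as a covariate, the log2 fold change of *Cited1* was −0.28 (adjusted p = 0.163, edgeR). *Xist* was low and *Ddx3y* present in every library, so by these genes all 8 read as male. The fit thus had no difference in sex to adjust for.

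*Irx3* (ENSMUSG00000031734, chromosome 8, 91798525 to 91802067, minus strand) encodes an Iroquois homeodomain factor of the trabeculae and the conduction system. It measured 19.1, 21.5, 25.6 and 20.9 CPM in cKO replicates 1 to 4 and 24.2, 23.2, 25.0 and 24.3 CPM in the controls in the same order. As for *Cited1*, 3 of 4 cKO libraries lay below every control, and replicate 3 was above every control. Its fitted log2 difference was −0.15 ± 0.0837 (SE, adjusted p = 0.493), with a 95% interval of 0.796 to 1.02-fold. *Irx3os*, on the opposite strand, shares 1653 bases with it and held 782 counts in all.

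The relatives of *Irx3*, *Cited1* and *Cpne5* gave 0 calls among 14 genes tested, with 1 at an unadjusted p under 0.05. *Irx4*, the most abundant Iroquois gene in these ventricles at 81.5 TPM and a gene of ventricular muscle, was at 101 to 119 CPM in cKO and 128 to 134 CPM in control libraries, without overlap (log2 fold change −0.25, adjusted p = 0.0729). The other Iroquois genes, *Irx1*, *Irx2*, *Irx5* and *Irx6*, ranged from 8.67 to 22.4 TPM, so that *Irx3* at 17.4 TPM lay among them, and their log2 fold changes ran from 0.08 to 0.19. *Cited2* and *Cited4*, at 38.7 and 25.5 TPM, were far below *Cited1*, with log2 fold changes of −0.11 and 0.03.

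*Gja5* (ENSMUSG00000057123, chromosome 3, 96904693 to 97077416, plus strand) encodes connexin 40, a gap junction protein of the trabeculae, the later Purkinje fibres and arterial endothelium. It measured 190.1, 158, 192 and 189 CPM in cKO replicates 1 to 4 and 192, 181, 200.2 and 175 CPM in the controls in the same order. Replicate 2 was low in cKO and the other 3 lay within the control range. The log2 difference was −0.04 ± 0.069 (SE, adjusted p = 0.893), with a 95% interval of 0.88 to 1.08-fold, the narrowest of the 9, and its sign turned on the TPM scale and with library sizes set by cardiomyocyte genes. *Gja5* is on the same chromosome as *Pkn2*, 45713485 bases away. An opposite-strand neighbour, *Gpr89*, shares 654 bases with it and held 9833 counts in all, and the strand setting of the counting was not given in the sources used here. The other cardiac connexins gave 0 calls of 4 and 1 at an unadjusted p under 0.05. *Gja1*, which encodes connexin 43 of working myocardium, averaged 217 ± 31.3 CPM in cKO against 275 ± 19.2 CPM in control libraries (SD, n = 4 each). The groups did not overlap in it (log2 fold change −0.34, adjusted p = 0.0820, edgeR).

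*Cpne5* (ENSMUSG00000024008, chromosome 17, 29155556 to 29238167, minus strand), which encodes a copine, was the least abundant member. It measured 33.0, 30.2, 28.0 and 25.1 CPM in cKO replicates 1 to 4 and 23.8, 26.1, 22.2 and 22.2 CPM in the controls in the same order. All but cKO replicate 4 lay above every control, and that library lay below control replicate 2 alone. The means were 29.1 ± 3.37 and 23.6 ± 1.86 CPM (SD, n = 4 each). This was a log2 difference of 0.30 ± 0.0854 (SE, adjusted p = 0.114), with a 95% interval of 1.09 to 1.40-fold. DESeq2 called it (adjusted p = 0.0317), as did edgeR with no filter on low counts (adjusted p = 0.0248) and without cKO replicate 4 (adjusted p = 0.0389), and with library sizes set by cardiomyocyte genes the groups did not overlap. Over the remaining alternatives the adjusted p ran from 0.0745 to 0.362. The copines *Cpne3* and *Cpne2*, at 16.6 and 5.95 TPM, had log2 fold changes of 0.00 and 0.01.

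**Figure D3:**
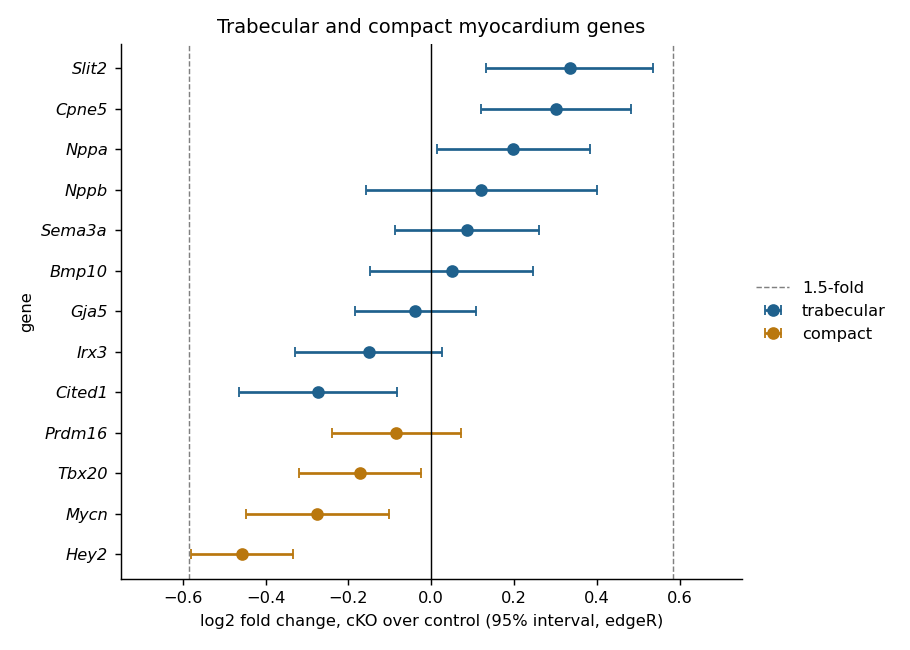
Log2 fold change of cKO over control (horizontal axis, edgeR) of the 9 trabecular genes (blue) and of 4 compact myocardium genes (orange), with 95% intervals from 4 libraries a group. Dashed lines mark a 1.5-fold difference, which no interval of a trabecular gene reached, and *Hey2* at −0.46 was the lowest of the 13.

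The members' deviations from their group means were also compared in pairs. Within a group, the deviations from the group mean of *Nppa* and *Nppb* had a Pearson r of 0.67 (exact permutation p = 0.0694) and a Spearman rho of 0.62 (exact permutation p = 0.118) over 8 libraries, and r was 0.51 without cKO replicates 2 and 4. Those of *Nppa* and *Bmp10* had an r of 0.67 (exact permutation p = 0.0885), a rho of 0.48 (p = 0.271), and an r of 0.17 without the same libraries. Of all 36 pairs, 23 had an r above 0 and 13 below, down to −0.70 for *Irx3* with *Slit2* (exact permutation p = 0.196), 0 pairs had a p under 0.05, and the lowest adjusted p over the 36 was 0.910. The coefficient of variation was larger among cKO than among control libraries in 9 of 9 members, with a median of 14.0% against 6.09%. The same held for 65.1% of the 9858 genes with a mean of at least 10 CPM, whose medians were 6.86% and 5.48%.

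**Figure D4:**
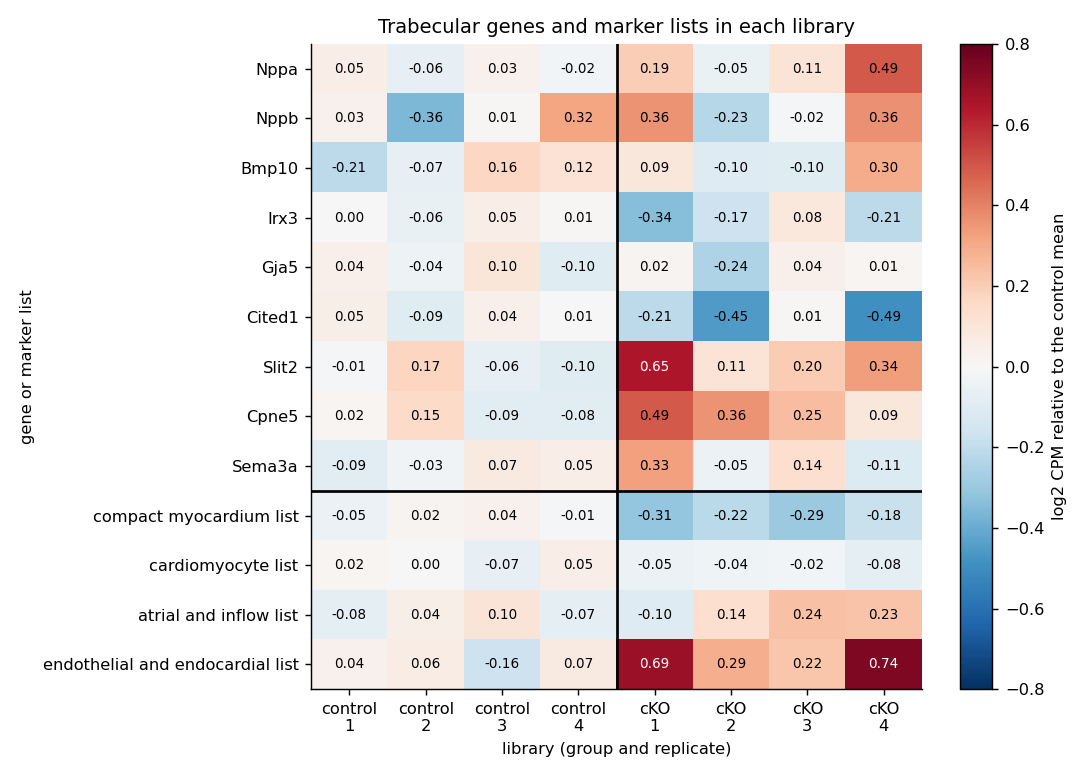
Log2 CPM of each trabecular gene relative to its control mean (upper rows), and the mean of the same over the genes of 4 marker lists (lower rows), in each library (columns). The compact list was at −0.31 to −0.18 in the cKO libraries, the cardiomyocyte list at −0.08 to −0.02 and the endothelial list at 0.22 to 0.74, while the trabecular genes had both signs in every cKO library.

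Some genes outside the list followed single members closely over the 8 libraries, each taken relative to its group mean. Among 9857 genes with a mean of at least 10 CPM, the highest Pearson r was 0.99 for *Slit2* with *Zfp512b*, 0.98 for *Bmp10* with *Ghr*, for *Gja5* with *Sord*, for *Cited1* with *Prkra* and for *Sema3a* with *Cilk1*, and 0.97 for *Nppa* with *Renbp*, for *Nppb* with *Rapgef5* and for *Irx3* with *Swsap1*. *Cpne5* was followed most closely by *Rfx5* (r = 0.96) and *Mecom* (r = 0.94). The second in line for the others were *Ticam1* for *Nppa*, *Gcat* for *Nppb*, *Kif1c* for *Bmp10*, *Prxl2a* for *Irx3*, *Smpdl3a* for *Gja5*, *Cog4* for *Cited1*, *Ccdc82* for *Slit2* and *Tcaf1* for *Sema3a*. These are the highest of many values over few libraries that share their depth and tissue, and they describe a likeness only. No gene was named for more than 1 member.

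Of the genes of the compact layer, 1 fell. *Hey2*, which encodes a repressor that marks compact myocardium, was at 71.1, 75.1, 79.2 and 83.0 CPM in cKO and 102, 108, 106 and 107 CPM in control replicates 1 to 4, so that it fell without overlap (log2 difference −0.46 ± 0.0578, SE, adjusted p = 0.00171, edgeR). It was the 1 gene of 4 in the compact list to pass the FDR threshold. *Mycn*, *Tbx20* and *Prdm16* had log2 fold changes of −0.27, −0.17 and −0.08 (adjusted p = 0.130, 0.304 and 0.728). At an unadjusted p under 0.05 (edgeR) were 3 of the 4, all lower in cKO, against 6.2% of all genes lower at that p. The median of the list was −0.22, beside 0.09 for the trabecular genes. In each library, the mean log2 CPM relative to control was −0.31 to −0.18 for the compact list and −0.09 to 0.18 for the trabecular genes in cKO, and −0.05 to 0.04 and −0.04 to 0.03 in control. Whether the 2 lists differed from each other was not tested.

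Of 12 regulators of chamber genes, 11 had a log2 fold change below 0 and 1 fell past the FDR threshold. At an unadjusted p under 0.05 (edgeR) were 5 of the 12, all lower in cKO, against 6.2% of all genes lower at that p. The same 5, *Hand1*, *Nkx2-5*, *Tbx3*, *Srf* and *Meis1*, were lower without overlap, while 6.91% of all genes did not overlap in either direction. *Hand1*, a factor of the left ventricle, was at 58.3 to 80.7 CPM in cKO and 92.5 to 102 CPM in control libraries (log2 fold change −0.47, adjusted p = 0.0112, edgeR). *Nkx2-5*, the cardiac homeodomain factor whose site was searched above, was at 74.5 to 108 CPM against 116 to 127 CPM, without overlap (log2 fold change −0.32, adjusted p = 0.109). *Srf* was at 105 to 112 CPM against 115 to 128 CPM (log2 fold change −0.18, adjusted p = 0.158). *Tbx5*, *Gata4* and *Mef2c* had log2 fold changes of −0.05, −0.03 and 0.03. The median of the list was −0.11.

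Among 25 genes of trabeculation signalling, 2 rose past the FDR threshold, 0 fell, and the median log2 fold change was 0.09. The list was not confined to genes that promote trabeculation, so its direction is not a measure of that drive. *Nrg1*, the neuregulin ligand made by endocardium, was at 30.1, 29.0, 26.4 and 21.4 CPM in cKO and 18.3, 20.1, 16.5 and 19.6 CPM in control replicates 1 to 4 (log2 difference 0.52 ± 0.0998, SE, adjusted p = 0.0218, edgeR). *Vcan*, which encodes versican of the cardiac jelly, was at 1728 to 2210 CPM in cKO and 1368 to 1642 CPM in control libraries (log2 fold change 0.36, adjusted p = 0.0416). The groups did not overlap in either gene. The Notch ligand *Dll4* and receptor *Notch1* had log2 fold changes of 0.61 and 0.49 (adjusted p = 0.0503 and 0.0693). The cardiomyocyte receptors of neuregulin, *Erbb2* and *Erbb4*, had log2 fold changes of −0.21 and 0.11 (adjusted p = 0.111 and 0.660). *Erbb2* was lower without overlap, at 142 to 158 CPM in cKO and 161 to 182 CPM in control libraries. *Erbb3*, of the same list, was higher without overlap (log2 fold change 0.31, adjusted p = 0.118, edgeR). Of the 25, 11 had an unadjusted p under 0.05 (edgeR), 10 of them higher in cKO, against 12.8% of all genes (6.61% higher). The groups did not overlap in 7 genes higher and 1 lower in cKO, while 6.91% of all genes did not overlap in either direction. The call of *Nrg1* was lost in 4 of the 8 fits that left out a library, and that of *Vcan* in 7.

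Markers of other cells moved with the groups. All 12 endothelial and endocardial markers were higher in cKO, 6 of them past the FDR threshold, with a median log2 fold change of 0.42, summed levels of 1641 to 2026 CPM in cKO and 1287 to 1517 CPM in control libraries, and none of the 12 at 0. They were highest in cKO replicates 4 and 1 (mean log2 CPM relative to control of 0.74 and 0.69, against 0.29 and 0.22 in replicates 2 and 3). *Slit2* in those replicates was 0.34 and 0.65, against 0.11 and 0.20, and *Nppa* was 0.49 and 0.19, against −0.05 and 0.11. *Nppb* and *Bmp10* were also higher in both of those replicates than in the other two. The remaining 5 members were not, with *Cpne5* at 0.09 and 0.49, against 0.36 and 0.25, and *Sema3a* at −0.11 and 0.33, against −0.05 and 0.14. How many of all genes had this order was not counted. Among the cKO libraries, the macrophage and erythroid lists were also highest in replicates 1 and 4. All 8 macrophage markers were higher, 2 of them past the threshold, at summed levels of 8.15 to 35.9 CPM against 4.07 to 9.15 CPM. With 1 library left out at a time, *Cdh5* kept its call in 2 of 8 fits, *Emcn*, *Nfatc1* and *C1qb* in 3, *Sox17* in 4 and *C1qc* in 5, and each of these stayed higher in cKO in all 8. The part of these cells in the values of *Slit2*, *Cpne5*, *Nppa*, *Nrg1*, *Vcan* and *Sema3g* was not tested. With library sizes set by the 12 cardiomyocyte genes, which raised the median of all genes by 0.04, the log2 fold changes of *Slit2*, *Cpne5*, *Nppa* and *Cited1* were 0.38, 0.35, 0.24 and −0.23, with 0 members past the FDR threshold.

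Atrial muscle also expresses *Nppa*, *Gja5* and *Bmp10*. Of 8 atrial and inflow markers, 4 were higher and 4 lower in cKO and 0 passed the FDR threshold, while 3 had an unadjusted p under 0.05, all higher in cKO (*Sln*, *Nr2f2* and *Stard10*), with summed levels of 213 to 243 CPM in cKO and 217 to 227 CPM in control libraries. The 6 outflow and atrioventricular canal markers, 6 epicardial markers and 8 cushion markers gave 0 calls each, with 1, 2 and 1 at an unadjusted p under 0.05. In cKO replicate 1 the outflow and canal list was at −0.89 (mean log2 CPM relative to control). It was at 0.01 to 0.31 in the other cKO and −0.20 to 0.17 in control libraries. The epicardial list was also lowest there, at −0.50, against −0.30 to 0.00 in the other cKO libraries. That library had the highest *Slit2*, *Cpne5* and *Sema3a* and the lowest *Irx3* of the 8, and a link was not tested. Erythroid markers gave 0 calls of 7, hepatic and yolk sac markers 0 of 6 tested, and pharyngeal markers 0 of 5 tested, with 0, 5 and 1 at an unadjusted p under 0.05. All 6 hepatic and yolk sac genes were lower in cKO, 2 without overlap (*Apob* and *Ttr*), at summed levels of 1.68 to 3.52 CPM in cKO and 3.32 to 30.6 CPM in control libraries. Control replicate 1 stood apart in them, with *Afp* at 15.9 CPM against 0.249 to 2.24 CPM in the other controls. In a neural list *Sox3* fell (log2 fold change −1.43, adjusted p = 0.0112), and it was the 1 call of 5 tested.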

How the data were processed

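RNA was sequenced from E10.5 ventricles, with 4 cKO and 4 control libraries, grouped by the sample titles. Poly(A) RNA libraries were sequenced on a NovaSeq X Plus. The authors deposited 2 tables with 1 column per library, the first of raw, unnormalized counts and the second of TPM values scaled for transcript length. The submitters' processing notes name Trim Galore 0.6.7, HISAT2 2.2.1, StringTie 2.2.1, featureCounts, DESeq2 and GRCm39. The strand setting of the counting is not given in the sources used here. Positions in the TPM table match GRCm38 and are given on that build, and promoter windows come from RefSeq on GRCm38.p6. TPM keeps no depth, so tests used the counts.

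All genes reaching 8 counts over the libraries were tested with edgeR 4.0.16 in R 4.3.3 (quasi-likelihood F test, TMM scaling, condition as the only term), with Benjamini-Hochberg adjustment over 26820 genes. The authors tested with DESeq2, and edgeR took its place here as the main test. The FDR threshold was an adjusted p of 0.05, and the authors also required a 1.5-fold change. CPM was scaled by TMM, and log2 CPM had a prior count of 2. Intervals cover 95%. The level of a list was its genes' average log2 CPM in a library minus that of the controls, and no list was tested as a set. P-values rest on how far the 4 libraries within a group differed, which edgeR moderates for each gene by the spread over all genes tested. Each trabecular gene thus had 15.8 degrees of freedom, more than its own libraries supply. No 2 libraries of a group were copies, with a chi-square per degree of freedom of 12.0 to 39.1 over 12 pairs.

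Alternatives were DESeq2 1.42.0, limma-voom (limma 3.58.1), DESeq2 size factors in edgeR, library sizes set by 12 cardiomyocyte genes, edgeR's filterByExpr or no filter on low counts, a block for the replicate number, log2 Xist CPM as a covariate, limma on log2(TPM + 1) and log2(TPM + 0.1), and the omission of each library. For genes outside the 9, the same alternatives were added after seeing the data.

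The 9 genes, the lists, the motifs and the tests were chosen with earlier results of these data known. Named were the 9 members and *Pkn2*, up to 4 genes per list past the FDR threshold, genes that show a list's defining markers near 0, and for each member the 2 genes with the most similar pattern. Other genes of the lists that are named did not pass the threshold and were chosen after their values were seen, as examples of each list.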

Additional observations from a re-analysis of the deposited data

Results flagged for a closer look

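In 1 of the 18 groups of 4 values formed by the 9 trabecular genes and the 2 conditions, 1 library stood apart from the other 3. *Gja5*, the connexin 40 gene, was at 158 CPM in cKO replicate 2 and at 189 to 192 CPM in the other cKO libraries. The gap to the nearest of them was 0.894 of the range of the group, above Dixon's critical value for 4 samples, which chance passes in about 1 of 20 groups. Without that library the log2 fold change of *Gja5* was 0.03 in place of −0.04, neither past the FDR threshold.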

How the results depend on the processing

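Of the 9 trabecular genes, *Nppa*, *Nppb*, *Irx3* and *Sema3a* kept their direction and stayed short of the FDR threshold in all 18 alternative fits, and *Pkn2* stayed past it in each. *Slit2* and *Cpne5* passed it with DESeq2 (log2 fold changes of 0.34 and 0.31, adjusted p = 0.0227 and 0.0317) and, like *Cited1*, with no filter on low counts (0.34, 0.31 and −0.27, adjusted p = 0.00723, 0.0248 and 0.0434), so that 2 members were called higher with DESeq2, and 2 higher and 1 lower with no filter. Leaving out 1 library at a time gave 0 to 1 higher, 0 to 1 lower, and log2 fold changes of 0.22 to 0.41 (*Slit2*), 0.24 to 0.37 (*Cpne5*), −0.38 to −0.20 (*Cited1*), −0.032 to 0.11 (*Bmp10*), −0.069 to 0.033 (*Gja5*), 0.026 to 0.24 (*Nppb*, lowest without control replicate 2), −0.24 to −0.087 (*Irx3*, nearest 0 without cKO replicate 1) and 0.0018 to 0.15 (*Sema3a*, lowest without cKO replicate 1). *Cpne5* was called without cKO replicate 4 and *Cited1* without cKO replicate 3. *Gja5*, close to 0 throughout, turned to 0.0042 with library sizes set by cardiomyocyte genes and to 0.0025 and 0.0026 on log2 TPM with pseudocounts of 1 and 0.1. The count of members without overlap went from 0 to 1 (*Cpne5*) with that cardiomyocyte scaling and was 0 to 2 with 1 library left out: 2 without cKO replicate 2 (*Nppa* and *Slit2*), cKO replicate 3 (*Irx3* and *Cited1*) or control replicate 2 (*Slit2* and *Cpne5*), and 1 without cKO replicate 4 (*Cpne5*). The cause of these shifts was not tested.

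The replicate number as a block changed the call of none of the 9 members and gave 380 calls over all genes in place of 230, with 7 higher genes of the 9 context lists in place of 3. No pairing by number was seen: the correlations between same-numbered cKO and control libraries were −0.19, −0.03, 0.01 and −0.14, and 0 of 4 cKO libraries correlated best with its own number. With 4 libraries a group this cannot exclude pairing, and the sample titles call the controls littermates. Over all genes DESeq2 called 867, no filter 878, limma on log2 TPM 2 and 5, and the fits without a library 67 (without control replicate 1) to 744 (without cKO replicate 3). Of the 95 context genes tested, 3 were called higher and 3 lower. Higher calls were 13 with DESeq2, 13 with no filter, 6 with cardiomyocyte scaling, 5 with the *Xist* covariate, 0 on log2 TPM with either pseudocount and 0 to 12 with 1 library left out. Lower calls were 8 with DESeq2, 7 with no filter, 0 on log2 TPM with either pseudocount and 2 to 6 with 1 library left out. *Hey2* and *Corin* kept their calls in the 8 fits without a library, *Hand1* in 6, *Nrg1* in 4, *Sema3g* in 2 and *Vcan* in 1.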
